A study of Mus musculus with 16 samples.

Results

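The EphB receptors and the ephrin-B ligands were followed in single cells of mouse dorsal root ganglia (DRG), as 5 receptor genes (*Ephb1*, *Ephb2*, *Ephb3*, *Ephb4* and *Ephb6*) and 3 ligand genes (*Efnb1*, *Efnb2* and *Efnb3*). The members were chosen by name and make up 8 of the 49671 genes counted. Their levels are described over the 871 of 960 wells at embryonic day (e) 15.5 and the 369 of 576 wells at postnatal day (p) 1 that held at least 10000 unique molecular identifiers (UMIs, molecular tags that let each captured transcript be counted once).

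Cells positive for the red fluorescent protein tdTomato were isolated from DRG and sequenced by CEL-Seq2, which counts the 3′ ends of transcripts, in 10 libraries at e15.5 and 6 libraries at p1. The e15.5 cells came from PvtdTom mice, a line carrying a bacterial artificial chromosome in which the parvalbumin promoter drives tdTomato. The p1 libraries carry a label that names both Trpv1Cre; PvFlp; Ai65 mice, in which tdTomato needs a *Trpv1*-driven Cre and a parvalbumin-driven Flp together, and PvCre; Ai14 mice, in which parvalbumin-driven Cre suffices, without saying which line gave which library. Every library thus rests on the parvalbumin promoter, which is also active in a small subset of cutaneous mechanoreceptors, no treatment is labelled, and segmental level, sex and number of animals are not labelled per library. The labels name cell sorting at both ages, whereas the study's methods name sorting at e15.5 and picking by hand at p1, so age, mouse line and mode of isolation cannot be told apart.

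A library held 3701900 to 9299431 UMIs at e15.5 and 386517 to 8814472 at p1. Wells were placed in classes by the summed level of marker genes as CPM (UMIs counted per 1000000 in that well). At e15.5, 311 wells met the proprioceptor gate (*Avil* and *Isl1*, then *Pvalb*, *Runx3* and *Etv1*), 41 were other sensory neurons (*Avil* and *Isl1* without the proprioceptor genes) and 399 were connective tissue (collagen genes *Col1a1*, *Col1a2* and *Col3a1* without neuronal genes), although every library is labelled as proprioceptive sensory neurons. At p1, 320 wells were proprioceptors, 5 were other sensory neurons and 1 was connective tissue, so classes were compared at e15.5 alone, and 120 and 43 wells were left unassigned. The e15.5 proprioceptor wells held all 5 sensory neuron markers and all 4 proprioceptor markers in most wells, with summed levels of 4841 to 6045 and 4224 to 4768 CPM over the 10 libraries. Connective tissue markers summed to 33.8 to 271 CPM in proprioceptors and to 24344 to 41723 CPM in the connective tissue class. The classes were not free of each other's markers. Proprioceptor markers summed to 164 to 1792 CPM in other sensory neurons, and sensory neuron markers to 139 to 343 CPM in connective tissue. One p1 library, number 3, stood apart with 386517 UMIs and 8 proprioceptor wells. The e15.5 libraries 9 and 10 held 3 and 5 connective tissue wells. Some of the results that rest on these libraries are also given without them.

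EphB receptors are receptor tyrosine kinases that bind ephrin-B ligands on neighbouring cells, and because both partners span the membrane a contact can signal forward into the receptor-bearing cell and in reverse into the ligand-bearing cell. The system is known for repulsion and boundary formation, for the guidance of growing axons in the limb and spinal cord, and for the placing of blood vessels and neural crest cells. EphA receptors and ephrin-A ligands form a separate class, with *Epha4* and *Efna5* as the members best known for binding partners of the other class.

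*Efnb2*, a ligand also known from arterial endothelium, was the most abundant member in proprioceptors at e15.5. Its level was between 101 and 174 CPM in the 10 libraries, with a median of 146 CPM and a mean of 142 ± 23.1 CPM (SD, n = 10). No library of any other member reached this range, since the next gene, *Ephb2*, a receptor for all 3 ephrin-B ligands, lay between 26.0 and 42.9 CPM (median 33.3 CPM, mean 33.3 ± 4.89 CPM). One UMI stands for 1 captured transcript whatever its length, so levels of different genes are set side by side as CPM, with capture efficiency per gene unknown.

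*Efnb1*, the X-linked ligand, followed with 11.5 to 28.2 CPM (median 18.8 CPM), a range that overlapped that of *Ephb2* at its upper end. *Ephb3*, a receptor that acts with *Ephb2* in many tissues, had 6.86 to 21.8 CPM (median 12.8 CPM) and *Ephb6*, a receptor without kinase activity, had 5.62 to 17.9 CPM (median 13.7 CPM). These neighbours in the order did not differ beyond their spread, with means of 13.4 ± 4.53 CPM for *Ephb3* and 13.0 ± 4.88 CPM for *Ephb6*. *Efnb3*, a ligand of the nervous system midline, had 3.38 to 9.21 CPM (median 5.13 CPM) and *Ephb1*, a receptor of retinal and spinal axons, had 0 to 19.7 CPM (median 3.90 CPM), again with overlapping ranges. *Ephb4*, the receptor of venous endothelium, had 0.146 to 1.62 CPM (median 0.694 CPM), and its 25 UMIs came from 25 different wells of the 311.

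**Figure D1:**
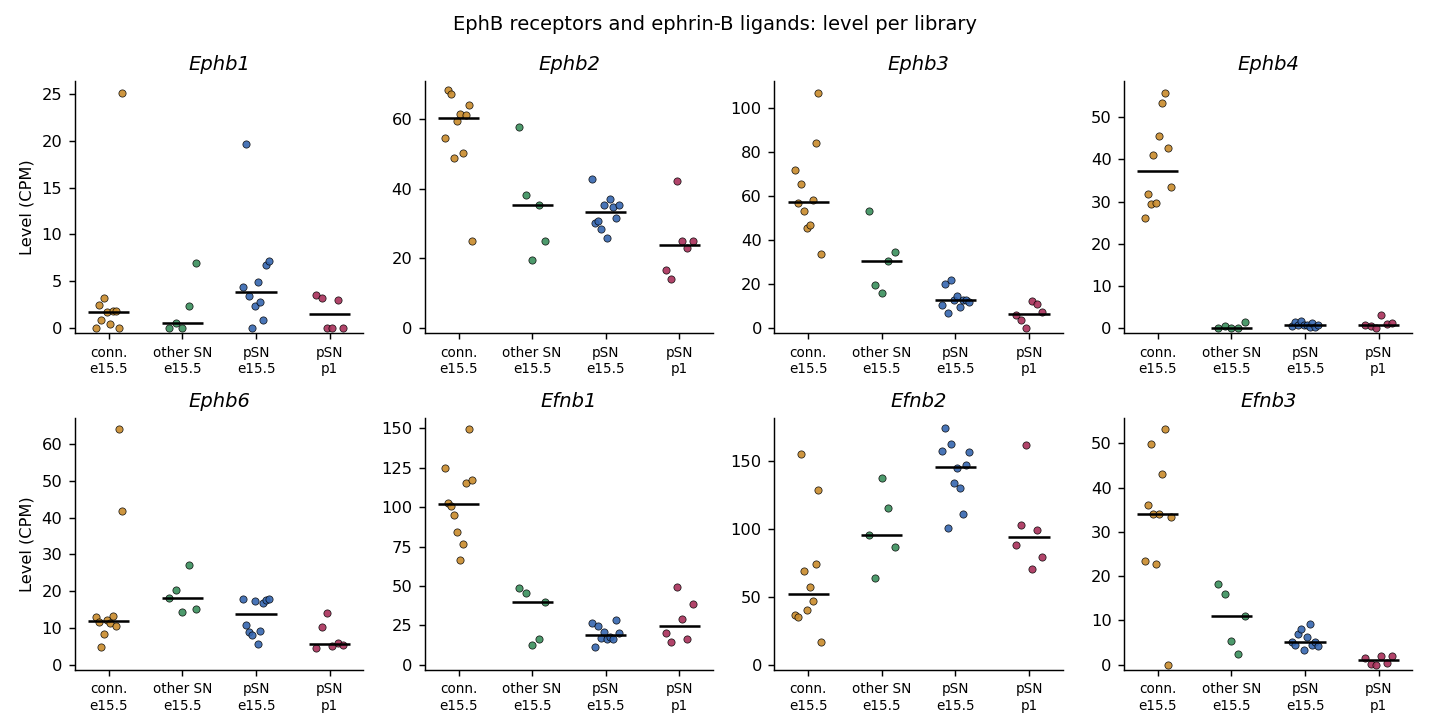
Levels of the 8 members in CPM (vertical axis, linear, separate scale per gene) for each library with at least 3 wells of a class. Points are libraries and bars their medians, for connective tissue (conn.), other sensory neurons (other SN) and proprioceptors (pSN) at e15.5 and for proprioceptors at p1. *Efnb2* is highest in e15.5 proprioceptors, with a median of 146 CPM against 52.2 CPM in connective tissue, whereas *Ephb4* lies between 26.0 and 55.8 CPM in connective tissue and below 4 CPM in every neuronal library.

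Since the e15.5 libraries held connective tissue wells beside neurons, the first comparison asked how the members differed between proprioceptors and these non-neuronal cells of the same e15.5 libraries. Of 7 members tested, *Efnb2* was higher and 5 members were lower in proprioceptors, and *Ephb6* did not pass the test (edgeR quasi-likelihood test on counts summed per library and class, Benjamini-Hochberg adjusted over 13325 genes, threshold 0.05). These classes differ at most genes, with 79.2% of all tested genes called, 37.0% higher and 42.2% lower in proprioceptors, so the count of members called is near the background. The median log2 fold change of the 7 members was -2.31, beside -0.10 over all genes tested.

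*Ephb4* showed the largest difference of the receptors. Connective tissue held 26.0 to 55.8 CPM in its 10 libraries (median 37.3 CPM), and the lowest of them lay above the highest proprioceptor library. The log2 fold change was -5.84 (SE 0.26, adjusted p = 7.57e-18 by edgeR's quasi-likelihood test), and the ratio of the pooled levels, 485 UMIs in connective tissue against 25 in proprioceptors, was 60.0 with an exact 95% interval of 40.1 to 93.6 that covers counting error alone. *Ephb3* had 33.5 to 107 CPM in connective tissue (median 57.5 CPM), with no overlap with proprioceptors, and a log2 fold change of -2.31 (SE 0.19). *Ephb2* had 25.1 to 68.2 CPM there (median 60.3 CPM), and its lowest library, number 10 with 5 wells and 3 UMIs, lay below every proprioceptor library, whereas the other 9 lay above them all. *Ephb2* was lower in proprioceptors by a log2 fold change of -0.92 (SE 0.14, adjusted p = 7.41e-07 by edgeR).

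*Ephb6* was the receptor for which a difference was not found, with 4.91 to 64.2 CPM in connective tissue (median 11.97 CPM). Libraries 9 and 10, with 3 and 5 UMIs, gave its 2 highest values there, and the other libraries lay between 4.91 and 13.2 CPM. The log2 fold change was 0.07 with a 95% interval of -0.44 to 0.58 (adjusted p = 0.805 by edgeR). With any 1 library left out it was 0.02 to 0.36 (adjusted p = 0.202 to 0.944 by edgeR). Under the other settings it was -0.18 to 0.51, so its sign turned. *Ephb1* had 0 to 25.1 CPM in connective tissue (median 1.76 CPM) on 21 UMIs and was too low in this fit to be tested. Where a setting let it in, it was higher in proprioceptors, by 1.58 with no filter on low counts (adjusted p = 0.0277), 1.51 with sums of at least 5 wells (adjusted p = 0.0408) and 1.93 with sums of at least 10 wells (adjusted p = 0.00574), but in the 4 fits that left out 1 library and tested it, the adjusted p was 0.0520 to 0.0646 (edgeR).

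The ligands went in different directions. *Efnb1* had 66.2 to 150 CPM in connective tissue (median 102 CPM), all above its 11.5 to 28.2 CPM in proprioceptors, and a log2 fold change of -2.40 (SE 0.18). *Efnb3* had 0 to 53.1 CPM in connective tissue (median 34.1 CPM), where 9 libraries had at least 22.7 CPM and library 9, with 3 wells, had 0, and its log2 fold change was -2.88 (SE 0.24). *Efnb2* had 16.7 to 156 CPM in connective tissue (median 52.2 CPM), so that 2 of the 10 libraries there, numbers 3 and 9, reached into the range of the proprioceptors. It was higher in proprioceptors by a log2 fold change of 1.01 (SE 0.22, a fold of 2.02, adjusted p = 0.000162 by edgeR), which was 1.52 without library 3.

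The *Efnb2* of the connective tissue class moved with endothelial markers. The 29 wells of that class with at least 100 CPM of the endothelial genes *Pecam1*, *Cdh5* and *Kdr* held 204 CPM of *Efnb2* when pooled, and the other 370 wells held 47.3 CPM. In the 3 libraries with at least 3 such wells, *Efnb2* was 48.5, 150 and 360 CPM. With these wells left out, a setting chosen after seeing the data, the log2 fold change of *Efnb2* between proprioceptors and connective tissue was 1.63. Summed endothelial markers were 0 to 336 CPM over connective tissue libraries and 1.405 to 6.17 CPM over proprioceptor libraries.

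**Figure D2:**
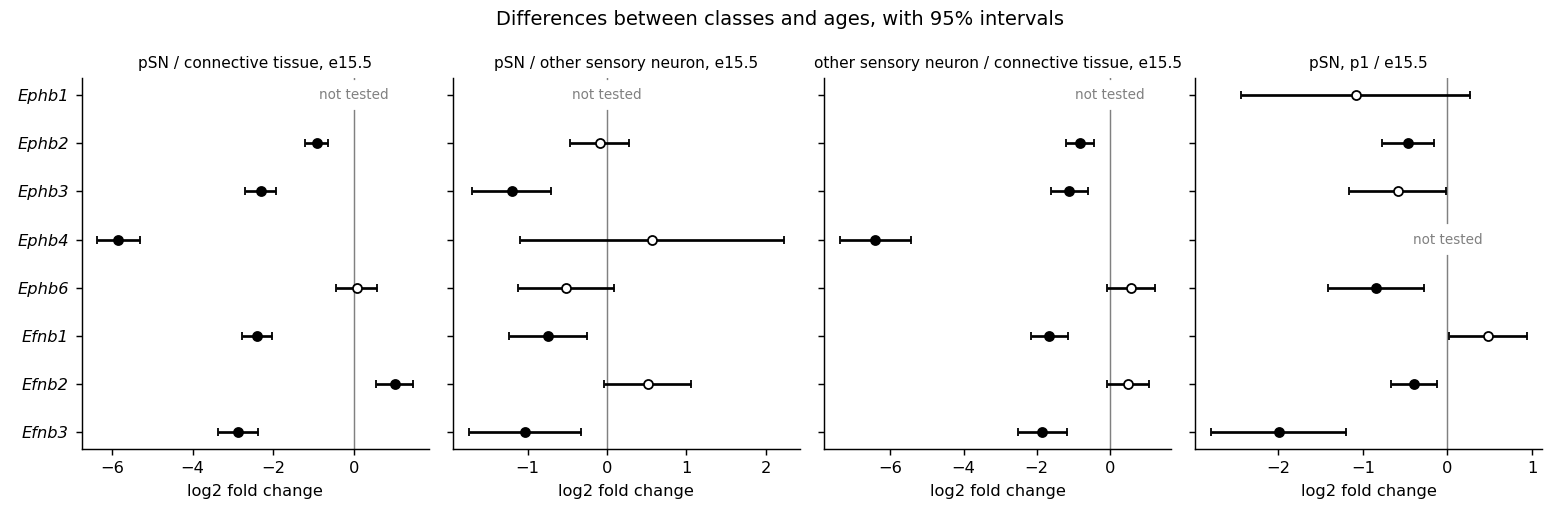
Log2 fold changes (horizontal axes) of the 8 members in the 3 comparisons of classes at e15.5 and in that of ages, with 95% intervals from edgeR. Filled points passed an adjusted p of 0.05 over all genes, open points did not, and genes too low for a fit are marked as not tested. *Efnb2* is the member above 0 among the filled points of the first panel, at 1.01, and *Ephb4* is the lowest there, at -5.84.

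Other sensory neurons offered a comparison within neurons, with 35 wells in 5 e15.5 libraries (numbers 1, 3, 5, 9 and 10). Of the 7 members tested, 3 were lower in proprioceptors, namely *Ephb3*, *Efnb1* and *Efnb3*, where 17.3% of all tested genes were called, 8.32% higher and 9.02% lower. The class is mixed by its markers, with the mechanoreceptor genes *Ntrk2* and *Maf* at 305 to 731 CPM and nociceptor genes at 165 to 988 CPM. In proprioceptors these were 16.2 to 70.9 and 0.371 to 102 CPM. In connective tissue they were 273 to 780 and 0 to 44.9 CPM, so *Ntrk2* and *Maf* do not set other sensory neurons apart from connective tissue.

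*Ephb3* had 53.1, 19.7, 16.1, 30.7 and 34.5 CPM in the 5 libraries of other sensory neurons. The lower 2 of them lay inside the proprioceptor range, which ends at 21.8 CPM, and 3 lay above it. The log2 fold change of proprioceptors against them was -1.20 (SE 0.24, adjusted p = 0.000638 by edgeR), and without libraries 9 and 10 it was -0.98 with an adjusted p of 0.0512. *Efnb3* had 18.2, 16.1, 5.36, 2.36 and 11.1 CPM, of which 3 lay above every proprioceptor library. Its log2 fold change was -1.03 (SE 0.35, adjusted p = 0.0372 by edgeR), and the call was lost on leaving out any 1 of libraries 1, 2, 3, 6, 8 and 10 (adjusted p = 0.0567 to 0.265).

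*Efnb1* had 48.5, 45.3, 12.5, 16.5 and 40.1 CPM in other sensory neurons, so 3 libraries lay above and 2 within the range of proprioceptors. The difference was -0.74 on the log2 scale (SE 0.24, adjusted p = 0.0295 by edgeR). With the library as a block, which pairs the classes of 1 library, it was -0.52 with an adjusted p of 0.154, and the call was also lost on leaving out any 1 of libraries 1, 2, 3, 4, 6, 7, 8 and 10 (adjusted p = 0.0501 to 0.200). Wells with glial transcripts moved with this result, since *Efnb1* was -1.12 (adjusted p = 0.00496 by edgeR) once they were left out of both classes.

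The other members did not pass the test between neuron classes. *Efnb2* had 95.6, 63.7, 138, 116 and 87.0 CPM in other sensory neurons, of which 3 lay below every proprioceptor library, with a log2 fold change of 0.51 and a 95% interval of -0.04 to 1.06 (adjusted p = 0.219 by edgeR). *Ephb2* had 57.7, 38.1, 19.7, 35.4 and 24.9 CPM, spread around the proprioceptor range, with a log2 fold change of -0.09 (interval -0.46 to 0.28). With wells that held glial transcripts left out, *Efnb2* passed the test at 0.55 (adjusted p = 0.0338 by edgeR) and *Efnb3* did not at -1.06 (adjusted p = 0.0556). *Ephb6* had 14.3 to 27.2 CPM and a log2 fold change of -0.51 (interval -1.12 to 0.09). *Ephb4* was found as 2 UMIs and *Ephb1* as 8 UMIs in the 41 wells, too few to compare.

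Other sensory neurons were also compared with connective tissue, on the same connective tissue libraries as the proprioceptors. *Ephb2* (-0.82), *Ephb3* (-1.11), *Ephb4* (-6.40), *Efnb1* (-1.65) and *Efnb3* (-1.85) were lower in other sensory neurons on the log2 scale by edgeR, 5 of 7 members tested, where 70.6% of all genes were called, 33.4% higher and 37.2% lower. *Efnb2* was 0.50 (adjusted p = 0.109) and 1.09 without library 3 (adjusted p = 4.23e-05), and *Ephb6* was 0.58 (adjusted p = 0.106 by edgeR). Both passed with wells that held glial transcripts left out, at 0.99 for *Efnb2* (adjusted p = 5.39e-05 by edgeR) and 0.75 for *Ephb6* (adjusted p = 0.0353). The pooled *Ephb4* of connective tissue was 104 times that of other sensory neurons, with an exact interval of 28.7 to 865 that rests on the 2 neuronal UMIs. *Ephb1* was too low to be tested here.

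The promoters of the genes at the ends of this contrast are shown next to each other, *Efnb2* as the ligand that was higher in proprioceptors, *Ephb4* as the receptor lowest in neurons relative to connective tissue, and *Ephb1* as the receptor found at high level in few neurons. Each runs from 250 bases before to 50 bases after the RefSeq start of the gene on GRCm38.p6, read 5′ to 3′ on the strand of the gene, and RefSeq held this stretch for 7 of the 8 members, all but *Efnb3*. Capitals mark matches on either strand to TGTGGT (a Runx motif), CCGGAA (an Ets motif) or CAGCTG (an E-box), searched because *Runx3* and *Etv1* define proprioceptors, and CEL-Seq2 reads 3′ ends, so nothing measured here bears on these bases.
Efnb2 (chr8:8661193-8661492, minus strand): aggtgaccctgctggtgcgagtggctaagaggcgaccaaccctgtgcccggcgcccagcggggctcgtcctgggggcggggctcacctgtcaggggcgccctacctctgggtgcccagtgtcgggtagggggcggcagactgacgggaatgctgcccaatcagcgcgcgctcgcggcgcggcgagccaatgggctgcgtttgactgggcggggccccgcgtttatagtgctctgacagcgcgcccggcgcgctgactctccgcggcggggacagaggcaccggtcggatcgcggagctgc
Ephb4 (chr5:137349859-137350158, plus strand): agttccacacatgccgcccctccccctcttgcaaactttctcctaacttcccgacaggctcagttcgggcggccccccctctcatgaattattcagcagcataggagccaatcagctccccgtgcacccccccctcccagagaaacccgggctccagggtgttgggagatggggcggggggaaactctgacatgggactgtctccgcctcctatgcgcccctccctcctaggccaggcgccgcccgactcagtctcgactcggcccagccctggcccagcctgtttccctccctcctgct
Ephb1 (chr9:102354644-102354943, minus strand): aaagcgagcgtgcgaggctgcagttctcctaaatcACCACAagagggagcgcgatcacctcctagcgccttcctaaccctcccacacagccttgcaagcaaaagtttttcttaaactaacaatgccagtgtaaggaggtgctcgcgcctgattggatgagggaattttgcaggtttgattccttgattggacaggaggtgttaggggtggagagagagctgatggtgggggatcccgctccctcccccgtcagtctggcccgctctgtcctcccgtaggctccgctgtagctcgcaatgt
The *Efnb2* stretch is 72.3% G and C with an observed over expected CpG ratio of 0.904, beside medians of 52.7% and 0.389 over 27025 promoters of this length, and that of *Ephb4* is 64.7% G and C and that of *Ephb1* 55.7%. None of the motifs was matched in *Efnb2*, *Ephb4* or *Efnb1*. The Runx motif matched once in *Ephb1*, the Ets motif once in *Ephb2* and once in *Ephb6*, and the E-box once in *Ephb3*, where 16.9%, 15.2% and 16.1% of all promoters hold them.

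Proprioceptors at p1 were compared with those at e15.5 to follow the members from the time axons reach their targets to birth. Of 7 members tested, 4 were lower at p1 (*Ephb2*, *Ephb6*, *Efnb2* and *Efnb3*), where 62.3% of 13664 genes were called, 30.6% higher and 31.7% lower. The median log2 fold change of the members was -0.59 and that of all genes -0.03, or -0.25 when no scaling factors between libraries were used.

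*Efnb3* fell furthest. It had 0 to 2.01 CPM in the 6 p1 libraries (median 1.07 CPM) on 30 UMIs, and the highest of them lay below the lowest of the e15.5 libraries, 3.38 CPM. The log2 fold change was -1.99 (SE 0.38, adjusted p = 0.000151 by edgeR), and -1.996 without p1 library 3. *Ephb6* had 4.55 to 14.1 CPM at p1 (median 5.69 CPM), where 3 libraries lay at 4.55 to 5.44 CPM, below all e15.5 libraries, and the others lay inside their range. It was lower at p1 by a log2 fold change of -0.84 (SE 0.27, adjusted p = 0.0102 by edgeR).

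*Efnb2* stayed the most abundant member at p1, with 70.2 to 162 CPM (median 93.9 CPM). Library 3 gave the highest value, 162 CPM on 23 UMIs, and of the other 5, at 70.2 to 103 CPM, 4 lay below all e15.5 libraries. The log2 fold change was -0.40 (SE 0.13, adjusted p = 0.0123 by edgeR) with library 3 and -0.46 (adjusted p = 0.00324) without it. *Ephb2* had 14.1 to 42.2 CPM (median 24.0 CPM), with library 3 again highest on 6 UMIs and the others at 14.1 to 25.1 CPM, below all e15.5 libraries. It was lower at p1 by -0.46 on the log2 scale (SE 0.15, adjusted p = 0.0104 by edgeR).

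The remaining members did not pass the test between ages. *Ephb3* had 0 to 12.4 CPM at p1 (median 6.47 CPM), a log2 fold change of -0.59 and a 95% interval of -1.16 to -0.02 (adjusted p = 0.0671 by edgeR), and passed on leaving out e15.5 library 3, p1 library 4 or p1 library 5 (adjusted p = 0.0217 to 0.0414). *Efnb1* had 14.5 to 49.2 CPM (median 24.7 CPM), overlapping e15.5, with a log2 fold change of 0.48 (adjusted p = 0.0649 by edgeR), and passed on leaving out e15.5 library 9, p1 library 2 or p1 library 5 (adjusted p = 0.0201 to 0.0342). *Ephb1* had 0 to 3.50 CPM, with 3 libraries at 0, and a log2 fold change of -1.08 (interval -2.44 to 0.27). *Ephb4*, at 0 to 3.21 CPM, was too low to be tested.

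Glial transcripts moved with *Efnb1* at both ages and with *Efnb3* at p1 in proprioceptor wells. At e15.5, 44 of the 311 wells and at p1, 34 of the 320 held at least 500 CPM of the glial genes *Apoe*, *Fabp7*, *Ttyh1* and *Sox10*, a list and setting chosen after seeing the data, and wells with more than 1 cell were not removed. *Efnb1* was 51.5 to 78.7 CPM in such wells at e15.5 (6 libraries) and 5.69 to 21.0 CPM in the other proprioceptor wells (10 libraries), with no overlap. At p1 these values were 51.9 to 118 CPM (4 libraries) and 11.6 to 21.5 CPM (6 libraries), again with no overlap. *Efnb3* at p1 was 4.40 CPM, or 18 UMIs, in pooled wells with glial transcripts and 0.546 CPM, or 12 UMIs, in the 286 wells without. Receptor shares, as wells with a UMI, are first given without equal depth. *Ephb4* was in 18.2% of wells with glial transcripts against 6.37% without at e15.5, and 20.6% against 5.59% at p1. *Ephb3* was in 77.3% against 56.6% and 52.9% against 30.4%. *Ephb6* was in 65.9% against 68.2% and 50.0% against 28.3%. *Ephb1* went the other way, at 15.9% against 21.3% and 2.94% against 13.3%. Depth was not equalized.

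Over whole libraries the summed glial markers were 84.0 to 707 CPM in e15.5 proprioceptors, 47.2 to 366 CPM in p1 proprioceptors and 92.1 to 3231 CPM in connective tissue. With the wells that held glial transcripts left out, the change between ages was 0.42 for *Efnb1* (adjusted p = 0.123 by edgeR) and -2.98 for *Efnb3*. The level of *Efnb2* was 112 to 182 CPM in e15.5 proprioceptor wells without glial transcripts, and its difference from connective tissue was 1.54 with glial wells left out of both classes.

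**Figure D3:**
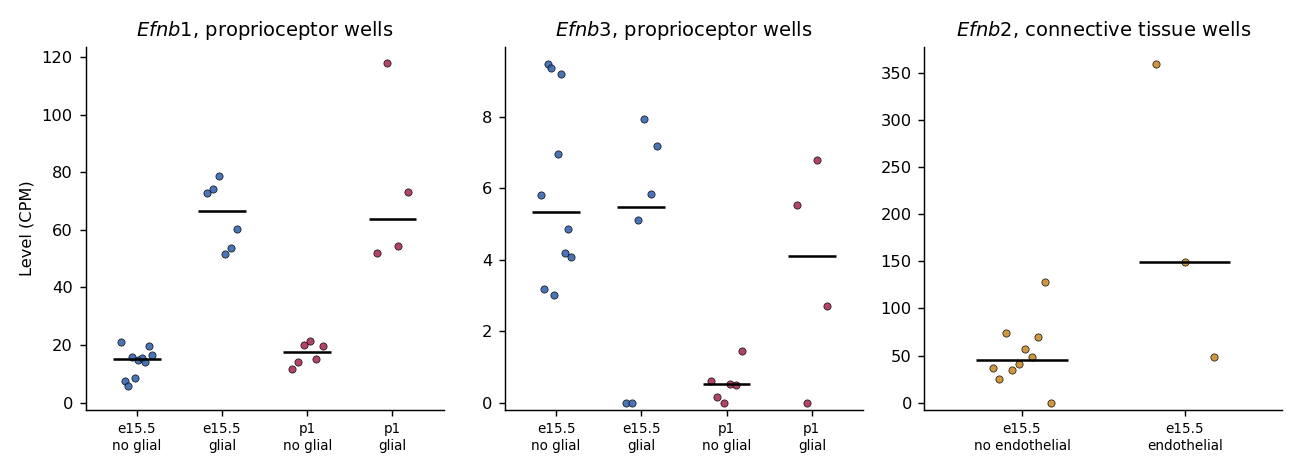
Levels in CPM (vertical axes, linear) per library of *Efnb1* and *Efnb3* in proprioceptor wells without and with glial transcripts, at e15.5 and p1, and of *Efnb2* in e15.5 connective tissue wells without and with endothelial transcripts. Points are libraries with at least 3 such wells and bars their medians. *Efnb1* does not overlap between wells with and without glial transcripts at either age, at 51.5 to 78.7 against 5.69 to 21.0 CPM at e15.5.

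Within proprioceptors, the study marks neurons of hindlimb muscles with *Gabrg1* and neurons of back muscles with *Tox*, so wells were split by which of the 2 genes reached 20 CPM and was the higher, a rule that uses no member. A shallow well can reach this cut on 1 UMI, and the median proprioceptor well held 119302 UMIs at e15.5 and 61408.5 at p1. At e15.5, 44 wells were of the *Gabrg1* type (4 libraries, numbers 7 to 10), 118 of the *Tox* type (9 libraries) and 149 of neither, and at p1 there were 90, 131 and 99. The *Tox*-type libraries at e15.5 were numbers 1 to 5 and 7 to 10, so the unpaired test also sets partly different libraries side by side. The study drew on thoracic and lumbar ganglia, a level not labelled per library. It also marks neurons of abdominal muscles with *C1ql2*, and found *Gabrg1* alone in only a part of the hindlimb neurons. Wells of neither type may therefore include abdominal and hindlimb neurons. Of 5 members tested, 0 were called between the *Gabrg1* and *Tox* types at e15.5, at p1, or in the test of whether the difference itself changed with age (edgeR, with 1, 1 and 1 at an unadjusted p under 0.05, and 0 called in each by DESeq2). Among all 12040 genes 3.96%, 0.955% and 0.316% were called.

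*Ephb6* came nearest at e15.5. It had 2.49, 5.02, 13.0 and 7.08 CPM in *Gabrg1*-type wells of libraries 7 to 10 and 1.90 to 29.8 CPM in *Tox*-type wells (median 16.4 CPM), so the groups overlapped. This gave a log2 fold change of -1.15 (SE 0.41, adjusted p = 0.147 by edgeR), and with the library as a block, which pairs both types of 1 library, it was -1.48 with an adjusted p of 0.0475. At p1 the difference was 0.40 (interval -0.54 to 1.33), and the change between ages was 1.54 (adjusted p = 0.542 by edgeR).

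*Efnb2* had a log2 fold change of the *Gabrg1* type against the *Tox* type of 0.39 at e15.5 (interval -0.01 to 0.79, adjusted p = 0.383) and of 0.44 at p1 (interval 0.0035 to 0.88, adjusted p = 0.581 by edgeR). It had 78.5 to 172 CPM in the *Gabrg1* type and 52.9 to 124 CPM in the *Tox* type at e15.5. *Ephb3* had a log2 fold change of -0.68 at e15.5 (interval -1.42 to 0.06) and *Ephb2* one of 0.12 (interval -0.25 to 0.50), and *Efnb1* one of -0.35 (interval -1.04 to 0.33). These intervals leave room for differences in either direction for *Ephb2* and *Efnb1*.

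At p1 the log2 fold changes between the types were -0.64 for *Ephb3* (interval -1.48 to 0.20), -0.47 for *Efnb1* (interval -1.19 to 0.25) and -0.21 for *Ephb2* (interval -0.66 to 0.24). The p1 types were spread unevenly over libraries. In libraries 1, 2, 4, 5 and 6 the *Gabrg1* type had 10, 52, 7, 16 and 3 wells. The *Tox* type had 43, 5, 27, 17 and 34 there, and 5 in library 3. Mouse line is not labelled per library, so its part in the p1 differences between types could not be tested. *Ephb1*, *Ephb4* and *Efnb3* were too low to be tested between types. Pooled at e15.5, *Efnb3* had 6.18 CPM in the *Gabrg1* type and 6.14 CPM in the *Tox* type, *Ephb1* 2.91 and 2.85 CPM, and *Ephb4* 0.727 and 0.439 CPM on 4 and 6 UMIs.

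The proprioceptors of neither type held the most *Efnb2* at e15.5, 141 to 223 CPM in the 10 libraries (median 169 CPM). None of these libraries overlapped with the *Tox* type, and in all 9 libraries that held both groups the wells of neither type were the higher, with a median ratio of 1.71. They were also higher than the *Gabrg1* type in 4 of 4 libraries (median ratio 1.18). At p1 they were higher than the *Tox* type in 3 of 5 libraries and than the *Gabrg1* type in 1 of 5. In this group neither gene passed its cut, and the pattern was noticed in the values, so it is given without a test.

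Markers of other cells moved with this split. Summed glial markers were 11.9 to 1219 CPM over *Tox*-type libraries and 13.9 to 355 CPM in wells of neither type, and nociceptor genes 61.4 and 13.1 CPM when pooled. With wells that held glial transcripts left out of both groups, *Efnb2* was 144 to 223 CPM in wells of neither type and 56.7 to 124 CPM in the *Tox* type, higher in 9 of 9 libraries with a median ratio of 1.65. The part of the nociceptor genes was not tested. With all wells kept, the other ligands were lower in wells of neither type than in the *Tox* type in 7 of 9 libraries. The median ratios were 0.494 for *Efnb1* and 0.603 for *Efnb3*. With wells that held glial transcripts left out, these ratios were 0.530 and 0.336.

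**Figure D4:**
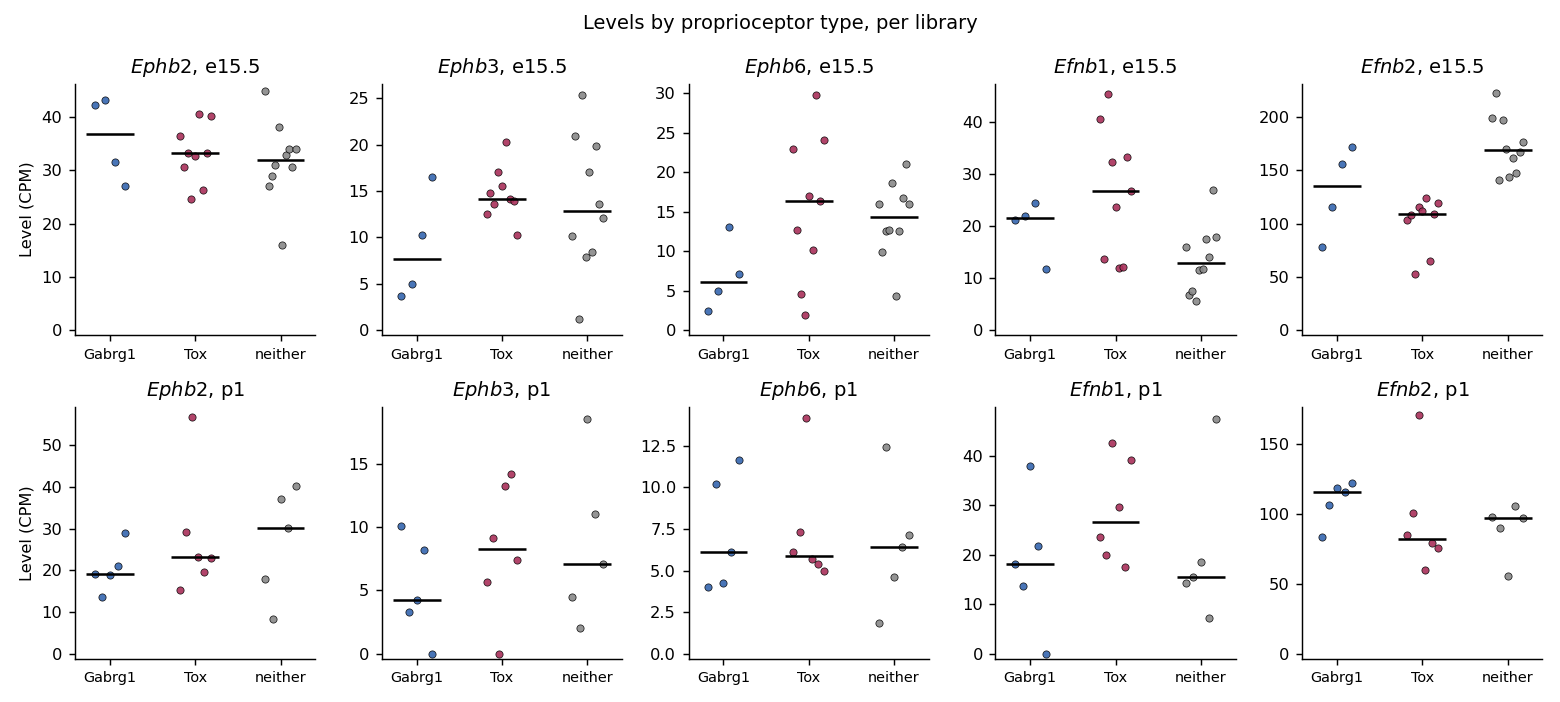
Levels in CPM (vertical axes, linear, separate scale per panel) of 5 members in proprioceptors of the *Gabrg1* type, the *Tox* type and neither, at e15.5 (top) and p1 (bottom). Points are libraries with at least 3 wells of a type and bars their medians. At e15.5 *Efnb2* of wells of neither type lies at 141 to 223 CPM, above all *Tox*-type libraries, and the *Ephb6* groups overlap.

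The members also differed in how their transcripts were spread over wells. *Efnb2* was found in 299 of the 311 e15.5 proprioceptor wells (96.1%, exact 95% interval 93.4% to 97.99%), *Ephb2* in 266 (85.5%) and *Ephb6* in 211 (67.8%). *Efnb1* was found in 65.6%, *Ephb3* in 59.5%, *Efnb3* in 31.8% and *Ephb4* in 8.04%. With every well thinned to 10000 UMIs the shares were 69.5% for *Efnb2* and 27.97% for *Ephb2*, and 0.643% for *Ephb4*, against 36.8%, 43.4% and 34.1% in connective tissue wells thinned alike. The median well held 119302 UMIs in proprioceptors and 27557 in connective tissue, and how much of the low *Ephb4* share in neurons came from free RNA was not tested.

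*Ephb1* lay furthest below the share of wells that an even level would give at e15.5. It was found in 64 wells (20.6%, interval 16.2% to 25.5%), where an even level in all wells at their depths would give 45.2%. Library 2, the highest at 19.7 CPM, owed 29 of its 53 UMIs to 1 well and had 10.04 CPM without it. In 25 wells of 8 libraries *Ephb1* reached 20 CPM, and these held 154 of its 205 UMIs (75.1%). Of them 17 were among the 149 wells of neither type, 2 among the 44 of the *Gabrg1* type and 6 among the 118 of the *Tox* type. At p1 there were 17 such wells in 3 libraries (11, 5 and 1 by the same order), with 35 of its UMIs (55.6%). Shallow wells can reach this cut on few UMIs, and both shares of UMIs follow in part from choosing wells by their *Ephb1*.

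*Efnb1* was also below it, found in 65.6% of e15.5 wells against 83.2% for an even level, and in 54.1% against 68.6% at p1, and *Efnb3* was found in 31.8% against 42.7% at e15.5. *Ephb4* lay at its even level, 8.04% against 7.64%, and *Ephb2* was near it at p1, 68.1% against 65.0%. Transcripts of at least 1 receptor and 1 ligand were found together in 285 of the 311 e15.5 proprioceptor wells (91.6%) and in 76.9% of those at p1. Thinned to 10000 UMIs, these shares were 37.6% and, at p1, 64 of 320 wells, beside 62.7% in connective tissue. *Ephb2* and *Efnb2* were found together in 264 e15.5 wells (84.9%, or 19.9% when thinned).

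**Figure D5:**
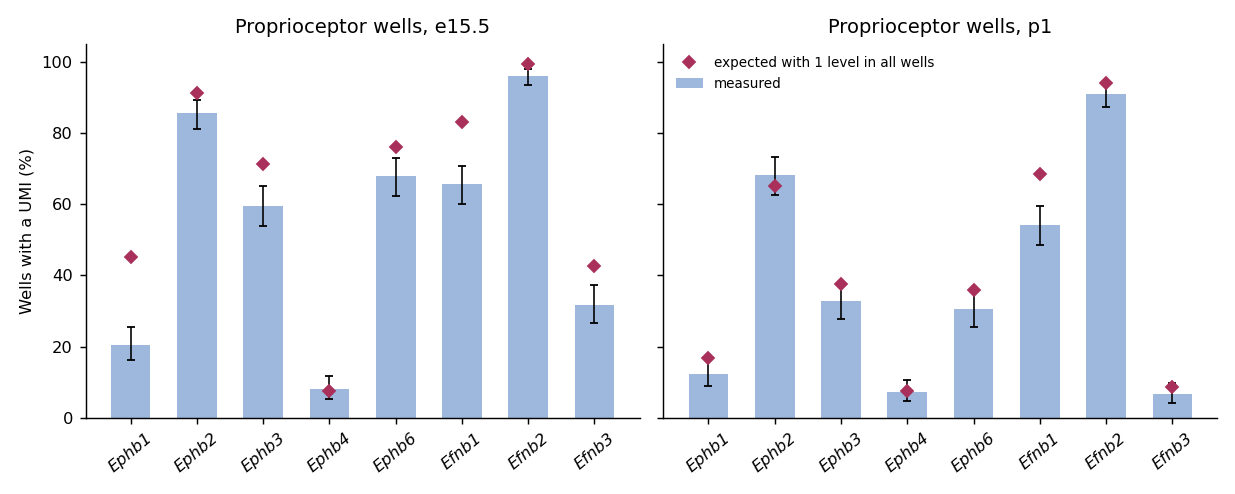
Share of proprioceptor wells with at least 1 UMI (vertical axis, percent) for each member at e15.5 (left) and p1 (right). Bars are measured shares with exact 95% intervals for counting error, and diamonds the share that 1 even level in all wells at their depths would give. *Ephb1* at e15.5 is measured at 20.6% against 45.2%, whereas *Ephb4* lies at its even level.

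The wider pathway was followed as 29 genes of receptor signalling, ligand signalling and cleavage. Between proprioceptors and connective tissue, 27 were tested, of which 11 were higher and 9 lower in proprioceptors by edgeR, where 37.0% and 42.2% of all genes were. The genes with the smallest adjusted p follow, here and below with their log2 fold changes in brackets. Among them were *Kalrn* (1.96), an exchange factor for small GTPases, and *Vav3* (3.40), another such factor. The others were *Cbl* (1.25), a ubiquitin ligase, and *Grip1* (1.92), a scaffold that binds the ephrin-B tail. Against other sensory neurons 2 were higher and 3 lower, beside 8.32% and 9.02% of all genes. Between ages 6 were higher and 9 lower at p1 of 26 tested, beside 30.6% and 31.7% of all genes, led by the adaptor *Nck2* (-1.63), the phosphatase *Acp1* (0.76), the scaffold *Itsn2* (1.07) and the transcription factor *Stat3* (0.61). Between types, 1 was higher in the *Gabrg1* type at e15.5, where 2.23% of all genes were, namely *Sdcbp* (0.46, adjusted p = 0.0499 by edgeR), a scaffold that binds the ephrin-B tail, and the smallest adjusted p at p1 was 0.184. The median log2 fold changes over the list were 0.17, 0.13, -0.10, -0.09 and 0.03 in these comparisons, beside -0.10, -0.01, -0.03, -0.02 and -0.01 over all genes.

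Partners that bind across the classes were higher at p1. *Epha4*, a receptor that also binds ephrin-B ligands, was lower in proprioceptors than in connective tissue (-2.31), higher than in other sensory neurons (1.31, adjusted p = 0.0442) and higher at p1 than at e15.5 (1.54, by edgeR). *Efna5*, an ephrin-A ligand that also binds *Ephb2*, was lower in proprioceptors than in connective tissue (-3.32) and in other sensory neurons (-3.85) and higher at p1 (1.56). At p1 *Efna5* was higher in the *Gabrg1* type than in the *Tox* type (2.47, adjusted p = 0.00222 by edgeR), and *Epha4* was not called there (-0.46). Both values rest on types spread unevenly over the p1 libraries.

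Across the 25 library-by-class sums at e15.5, the genes with the level most like each member by Pearson's r on log2(CPM + 1) were *Terf1* and *Stard9* for *Ephb2* (0.92 and 0.88), *Hes1* and *Ifi30* for *Ephb3* (0.94 and 0.92), *Egfr* and *Axl* for *Ephb4* (0.99 and 0.99) and *Nr2c2* and *Pdzd11* for *Ephb6* (0.82 and 0.77). For the ligands they were *Sh3pxd2a* and *Emp3* for *Efnb1* (0.97 and 0.96), *Pink1* and *Ogfod2* for *Efnb2* (0.88 and 0.87) and *Litaf* and *Maff* for *Efnb3* (0.95 and 0.93). Sums of 1 library share its preparation and the 3 classes set most of each r, so these values are a description.

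The members lie on separate chromosomes of GRCm38, with *Efnb2* at chr8:8617434-8661242 and *Ephb4* at chr5:137350109-137378669. *Efnb2* contains 3 unconfirmed transcripts on its own strand, *E230020D15Rik*, *Gm45073* and *Gm45074*, which were counted as separate genes with 1253, 1076 and 314 UMIs over all wells beside 9368 for *Efnb2*, so reads of 1 could have been given to another. *Ephb1*, at chr9:101922128-102354693, overlaps *Gm37562* on its strand (47 UMIs beside 425), and the end of *Ephb4* overlaps *Zan* on the other strand (44 UMIs beside 570).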

How the data were processed

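Single tdTomato-positive cells of mouse DRG were measured at 2 ages by CEL-Seq2. The authors demultiplexed and mapped the reads and deposited UMI counts per gene and well made with the R package scruff, with no well or gene removed. The submitters' processing notes name mm10 and GRCm38, and no release of the annotation was stated. Symbols were taken from the GRCm38 annotation (49326 of 49671 IDs).

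Wells of at least 10000 UMIs were kept. Classes were gates on CPM: *Avil* plus *Isl1* of at least 200 for neurons, *Pvalb* plus *Runx3* plus *Etv1* of at least 1000 for proprioceptors and under 500 for other sensory neurons and connective tissue, and collagens of at least 1000 for connective tissue, with neurons at that collagen level left unassigned. At e15.5, 50, 58, 47 and 81 wells lay within 2-fold of the neuron, proprioceptor, lower proprioceptor and collagen cuts, and 105, 110, 15 and 19 at p1. Doublets were not called. Each library uses 96 well barcodes, and 0 wells held identical counts.

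Counts were summed per library and class (at least 3 wells) and tested with edgeR (version 4.0.16) in R (version 4.3.3) with filterByExpr, TMM factors, the quasi-likelihood F test and Benjamini-Hochberg adjustment over all genes tested, at a threshold of 0.05. The step was first tested on simulated data. Libraries were the replicates, and whether they came from separate animals is not stated, so p-values measure the spread between libraries, which may be technical. Classes and types of 1 library are paired by that library, and deviations of such sums had a median r of 0.217 (20 pairs, -0.0356 to 0.626) for classes and 0.264 (9 pairs) for types, against -0.0207 and 0.00407 for sums of different libraries. Exact (Clopper-Pearson) intervals and ratios cover counting error alone. Members, lists, cuts and tests were chosen with earlier results of these data known. All 8 members were named in each comparison of classes, ages and types, with *Epha4*, *Efna5*, the 2 most alike genes per member and the 4 pathway genes of smallest adjusted p in 2 comparisons.

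Alternatives were no TMM factors, DESeq2 (version 1.42.0), no filter on low counts, sums of at least 5 or 10 wells, floors of 5000 or 20000 UMIs, other cuts, wells with a high mitochondrial share left out, thinning to 10000 UMIs, a replicate block and each library left out. Leaving out wells with glial transcripts (at least 500 CPM over 4 genes), connective tissue wells with endothelial transcripts (at least 100 CPM), and libraries 9 and 10, was added after seeing the data. The same step with the longer list of glial genes planned at first is not reported here. Other steps used Python (version 3.11.15), pandas (version 2.3.3) and SciPy (version 1.17.1).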

Additional observations from a re-analysis of the deposited data

Results flagged for a closer look

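In 64 groups of 4 to 10 libraries, each of 1 member in 1 class or type at 1 age, Dixon's test flagged an outlying library 12 times. The same library can be flagged more than once. The test's rate of about 1 in 20 holds for independent, normally distributed values. These groups share libraries and wells, so the 12 flags are not set against that rate. Most flags rest on few UMIs. In e15.5 proprioceptors, library 2 had 19.7 CPM of *Ephb1*, and the next library had 7.21 CPM. In e15.5 connective tissue, library 10 had 25.1 CPM of *Ephb1* (3 UMIs) and, as the lowest of its group, 25.1 CPM of *Ephb2* (3 UMIs). In *Tox*-type wells at e15.5, library 10 had 7.31 CPM of *Ephb1* on 20 UMIs. In *Gabrg1*-type wells at e15.5, library 8 had 1.25 CPM of *Ephb4* on 2 UMIs, where the others had 0.

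At p1, library 3, the shallow one, had 162 CPM of *Efnb2* in proprioceptors (23 UMIs), and in its 5 *Tox*-type wells 170 CPM of *Efnb2* (12 UMIs), 56.7 CPM of *Ephb2* (4 UMIs) and 14.2 CPM of *Ephb6* (1 UMI). Library 4 had 3.21 CPM of *Ephb4* in proprioceptors (8 UMIs) and 4.23 CPM in *Gabrg1*-type wells (2 UMIs). Library 2 had 3.64 CPM of *Ephb1* in *Tox*-type wells (2 UMIs).

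The 74 e15.5 wells below all gates took no part in the comparisons, and 4 members were higher there than in any class when pooled. How many of all genes were higher there was not counted, so this number is not a result about the members. *Ephb1* had 58.5 CPM, against 5.51 CPM in the highest class. *Ephb2* had 104 CPM against 58.9 CPM, *Ephb6* 53.9 CPM against 19.1 CPM and *Efnb3* 148 CPM against 37.4 CPM. All 74 wells held the neuronal gene *Tubb3*, whereas 17 held *Avil* and 20 held *Isl1*. The inhibitory neuron genes *Gad1* and *Pax2*, looked at after these values were seen, were found in 39 and 40 wells. They were looked at in a list with further genes, of which the transporter genes *Slc32a1* and *Slc17a6* are not given. Markers of other kinds were also present, with the mechanoreceptor genes *Ntrk2* and *Maf* at 1417 CPM, glial genes at 402 CPM and blood genes at 7485 CPM when pooled, the last 0 to 67483 CPM over 7 libraries, so the wells were not given a cell type.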

How the results depend on the processing

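Of 1218 values under other settings, 1127 kept their direction and side of the threshold, or, for counts, stayed within 1.5 times. Members called between proprioceptors and other sensory neurons, 3 as reported, numbered 1 with sums of at least 10 wells, 1 without wells of high mitochondrial share, 0 after thinning and 1 to 3 with 1 library left out. Between other sensory neurons and connective tissue, 5 as reported, they numbered 3 after thinning, which tested 4 genes. Between ages, 4 as reported, they numbered 0 after thinning, which tested 3 genes, and 4 to 6 with 1 library left out. Between types at e15.5 they numbered 1, *Ephb6*, with sums of at least 5 wells and 1 with the library as a replicate block. The replicate number was tried as a block between ages and left 2 calls, but same-numbered libraries of the 2 ages did not deviate together (median r -0.123, 6 pairs, -0.261 to 0.203). The library block changed no call other than those of *Efnb1* and *Ephb6* given above. Signs turned for values that had not passed the test. *Ephb6* against connective tissue was -0.064 with all cuts at the lower setting and -0.18 with the library block. *Ephb2* between neuron classes was 0.15 with no filter and -0.23 to 0.10 with 1 library left out, and *Ephb4* there was -0.77 and -0.053 at the lower and higher cuts. *Efnb2* between other sensory neurons and connective tissue was -0.041 with sums of at least 10 wells. Between types at e15.5, *Ephb2* was -0.014 and -0.16 at the lower and higher cuts and -0.030 to 0.27 with 1 library left out, and *Efnb1* was 0.16 at the higher cuts. At p1, *Ephb2* was -0.39 to 0.046 with 1 library left out. The cause of these turns was not tested. Thinning removes most UMIs of neurons, and the lowest members, *Ephb1* and *Ephb4*, were limited by depth throughout.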
